A study of Mus musculus with 8 samples.

Results

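The type I interferon response genes described here are 33 genes that cells switch on when interferon alpha or beta reaches them. They were chosen by name from the 56748 genes of the count table, all 33 had a row, and all 33 passed the filter on low counts, among 14723 genes that did. The libraries came from peripheral blood mononuclear cells of wild-type male C57BL/6J mice, 8 weeks old. For 1 month, mice of the 3 Fucoidan libraries had been gavaged each day with fucoidan, a sulphated polysaccharide of the brown seaweed Undaria pinnatifida, at 200 mg per kg, and those of the 5 Saline libraries with the same volume of saline, all on a standard basal diet. Each library is titled as a biological replicate, and p-values measure the spread between these libraries. The treatment text of the fucoidan samples names saline, against their titles and characteristics, and the titles were followed. Depth was 15453636 to 16334932 counts per library after saline and 13061703 to 15798058 after fucoidan.

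Type I interferons bind the receptor IFNAR1/IFNAR2, whose kinases JAK1 and TYK2 phosphorylate transcription factors of the STAT family, STAT2 among them. These join IRF9 and drive a set of genes through the interferon-stimulated response element of their promoters. The products sense foreign RNA, degrade or block it, tag proteins with the ubiquitin-like modifier ISG15, and feed back on the pathway. In blood, plasmacytoid dendritic cells are known for making type I interferon, and most leukocytes respond to it.

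The label of mononuclear cells was checked on marker genes, as summed levels in CPM (counts scaled to a common library total with edgeR's TMM factors). T cell markers summed to 672 to 838 CPM after saline and 956 to 1306 CPM after fucoidan, and B cell markers to 4376 to 5618 CPM and 2559.7 to 3701 CPM. Neutrophil markers, of cells that the density gradient should remove, were also present, at 943 to 1967 CPM and 969 to 1244 CPM. Haemoglobin transcripts took 3.51 to 8.48% of counts after saline and 13.5 to 24.1% after fucoidan, so red cell RNA was more abundant in every fucoidan library than in any saline library. In bulk libraries, fewer cells of a type and less RNA per cell cannot be told apart.

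The comparison of fucoidan with saline asks whether oral fucoidan altered the immune transcriptome of blood. The response genes did not move together. Isg15, Isg20 and Rsad2 rose 4.33-fold to 5.02-fold, Ifit1, Ifit2 and Oas3 rose 1.47-fold to 1.76-fold, and the other 27 did not pass the test in either direction. Thus 6 of 33 members were called higher and 0 lower (edgeR's quasi-likelihood test, Benjamini-Hochberg adjusted p below 0.05), while among all 14723 genes tested 9.11% were called higher and 4.65% lower. The median log2 fold change was 0.098 over the members and -0.042 over all genes tested. Without Isg15, Isg20 and Rsad2, which were set apart after their values were seen, 3 of the remaining 30 members were called, a share close to the 9.11% of all genes. The count of 6 was 4 with the replicate number as a block and 4 without fucoidan replicate 3.

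**Figure D1:**
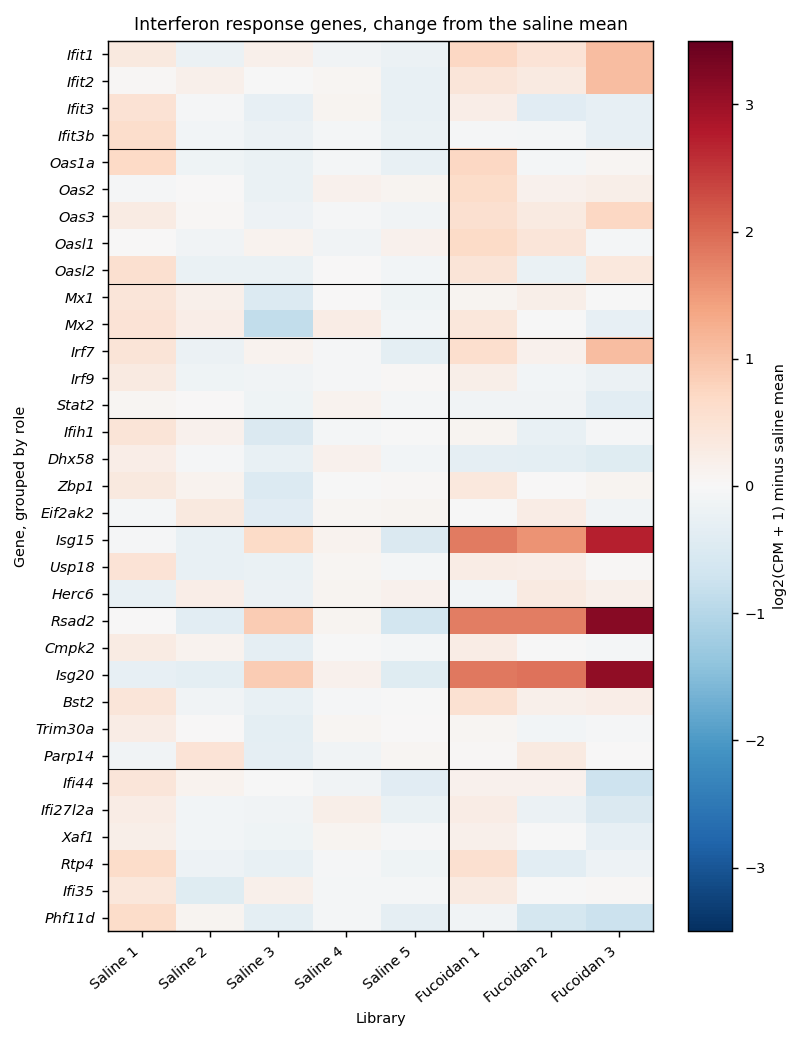
Level of each of the 33 genes (rows, grouped by role) in each of the 8 libraries (columns), as log2(CPM + 1) minus the mean of the saline libraries; red is above that mean and blue below it. Isg15, Isg20 and Rsad2 are red in all 3 fucoidan libraries, and most other rows are pale.

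Rsad2 encodes viperin, a radical SAM enzyme that makes a chain-terminating nucleotide against viral polymerases (ENSMUSG00000020641, GRCm39 chromosome 12, 26492745 to 26506451, minus strand). It stood at 205, 155, 373, 215 and 129.6 CPM in saline replicates 1 to 5 and at 696, 699 and 1824 CPM in fucoidan replicates 1 to 3. The groups did not overlap, saline replicate 3 was the highest of its group, and fucoidan replicate 3 stood far above the other fucoidan libraries. The mean was 215 ± 94.8 CPM (SD, n = 5) after saline and 1073 ± 651 CPM (SD, n = 3) after fucoidan, a log2 fold change of 2.32 (SE 0.371, edgeR adjusted p = 0.00396). Isg20 encodes an exonuclease that degrades single-stranded RNA (ENSMUSG00000039236, chromosome 7, 78563172 to 78570144, plus strand). Its levels were 157, 149, 354, 211 and 142 CPM after saline and 684, 711 and 1654 CPM after fucoidan. Again saline replicate 3 and fucoidan replicate 3 were highest, without overlap between groups. The log2 fold change of Isg20 was 2.33 (SE 0.347, edgeR adjusted p = 0.00396). Isg15 encodes the ubiquitin-like modifier itself (ENSMUSG00000035692, chromosome 4, 156283912 to 156285253, minus strand). It was measured at 22.7, 19.6, 38.4, 25.6 and 16.4 CPM after saline and at 86.3, 71.5 and 161 CPM after fucoidan. All fucoidan values lay above all saline values, and the log2 fold change was 2.11 (SE 0.288, edgeR adjusted p = 0.00396). Each of the 3 genes was called under all 16 alternatives, with log2 values of 1.70, 1.79 and 1.70 for Rsad2, Isg20 and Isg15 without fucoidan replicate 3.

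Markers of red cells moved with these 3 genes. Of 13 tested erythroid markers 12 were called higher, by the same test, and 0 lower. The 10 erythroid markers that are not globins, among them Alas2, the first enzyme of haem synthesis in red cells, and Slc4a1, the anion exchanger band 3, summed to 2341, 2247, 5325, 3097 and 1899 CPM in saline replicates 1 to 5 and to 9798, 11391 and 24136 CPM in the fucoidan libraries. None of these markers was at 0 in all libraries, though Klf1, the erythroid Krüppel-like factor, was too low to be tested. From high to low, the saline libraries stood in the order 3, 4, 1, 2, 5 for this sum and for each of Isg15, Isg20 and Rsad2. The fucoidan libraries stood in the order 3, 2, 1 for the sum, Isg20 and Rsad2, and in the order 3, 1, 2 for Isg15. The summed level of Isg15, Isg20 and Rsad2, divided by the erythroid sum of the same library, was 0.164, 0.144, 0.144, 0.146 and 0.152 after saline and 0.150, 0.130 and 0.151 after fucoidan. In that ratio the groups overlapped, whereas in the levels themselves they did not. Alas2 was the largest part of the erythroid sum, at 2252 and 11290 CPM as group means after saline and fucoidan. Isg15 was the smallest part of the sum of 3 genes, at 24.5 and 106 CPM. The ratio thus says little about Isg15 or about the other erythroid markers. Platelet markers moved too, with 9 of 9 tested called higher and sums of 2023 to 4335 CPM after saline and 6105 to 13078 CPM after fucoidan. The part of these cells in the rise of the 3 genes was not tested.

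**Figure D2:**
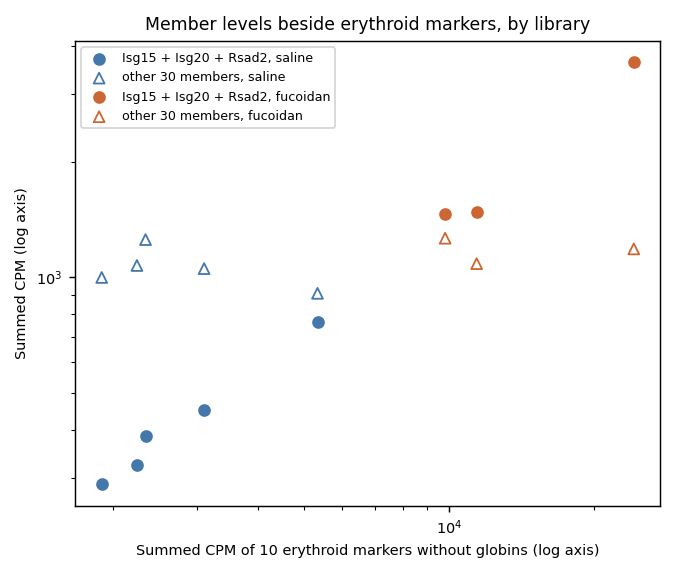
Summed level of Isg15, Isg20 and Rsad2 (filled circles) and of the other 30 members (open triangles) against the summed level of 10 erythroid markers without globins, all in CPM on log axes, with 1 circle and 1 triangle for each of 8 libraries. The circles climb with the erythroid sum within and across groups, from 289 to 3639 CPM, and the triangles stay between 908 and 1264 CPM.

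Promoters were read because the response element is the sequence through which these genes are known to be switched on. Of the 33 members, 24 had a promoter in the RefSeq table used here (GRCm38.p6), as windows of 300 bases from 250 before to 50 after the gene's start, and some had several windows. The core of the element was searched as GAAANNGAAA on both strands, which reads TTTCNNTTTC on the other, with overlapping matches counted. It was found in 12 of these 24 members (50.0%) and in 3.99% of all 27025 genes with a promoter. Among members called higher 4 of 6 held a match, and among those not called 8 of 18. Isg20 and Ifit2 were the called members with no match in any of their windows. The 4 called members with a match are shown, and for contrast Trim30a, the member with the highest mean CPM among those not called that held one. Each is written 5′ to 3′ along its gene, in the order chr4:156200769-156201068 (minus strand), chr12:26456403-26456702 (minus), chr19:34640639-34640938 (plus), chr5:120777610-120777909 (minus) and chr7:104465144-104465443 (minus), and capitals mark the matches.
Isg15: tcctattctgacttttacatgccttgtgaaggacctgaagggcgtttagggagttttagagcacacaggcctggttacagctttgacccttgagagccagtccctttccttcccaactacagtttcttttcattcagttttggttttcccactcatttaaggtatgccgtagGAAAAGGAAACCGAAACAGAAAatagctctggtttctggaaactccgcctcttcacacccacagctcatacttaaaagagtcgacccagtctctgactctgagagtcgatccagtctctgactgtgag
Rsad2: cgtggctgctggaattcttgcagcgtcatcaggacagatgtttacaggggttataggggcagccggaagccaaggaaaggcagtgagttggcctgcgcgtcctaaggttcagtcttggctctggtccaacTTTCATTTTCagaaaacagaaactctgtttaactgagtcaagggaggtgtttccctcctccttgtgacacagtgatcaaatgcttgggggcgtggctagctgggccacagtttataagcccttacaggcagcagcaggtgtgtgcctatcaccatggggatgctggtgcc
Ifit1: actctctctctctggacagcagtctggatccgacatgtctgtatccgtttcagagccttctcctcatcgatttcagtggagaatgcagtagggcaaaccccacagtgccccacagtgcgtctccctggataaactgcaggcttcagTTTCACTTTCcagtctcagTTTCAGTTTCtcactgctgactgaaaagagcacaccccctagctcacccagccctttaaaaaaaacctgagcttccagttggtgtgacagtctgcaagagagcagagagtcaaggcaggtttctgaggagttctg
Oas3: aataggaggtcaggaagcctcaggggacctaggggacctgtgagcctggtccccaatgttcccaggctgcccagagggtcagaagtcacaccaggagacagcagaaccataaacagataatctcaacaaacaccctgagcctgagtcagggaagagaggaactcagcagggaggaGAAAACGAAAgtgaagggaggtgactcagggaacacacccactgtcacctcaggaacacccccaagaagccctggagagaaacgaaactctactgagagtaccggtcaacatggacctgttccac
Trim30a: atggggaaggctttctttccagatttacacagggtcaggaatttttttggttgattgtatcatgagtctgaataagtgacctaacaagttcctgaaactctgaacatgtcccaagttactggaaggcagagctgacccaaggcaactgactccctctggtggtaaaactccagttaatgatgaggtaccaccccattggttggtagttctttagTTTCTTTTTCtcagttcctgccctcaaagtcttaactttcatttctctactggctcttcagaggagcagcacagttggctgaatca
Isg15 held 3 overlapping matches in a row, Ifit1 held 2 apart from each other, and Rsad2, Oas3 and Trim30a held 1 each. A match describes the letters of these windows and does not show that a factor was bound.

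Rsad2 and its neighbour Cmpk2 differed. Cmpk2 encodes a mitochondrial nucleotide kinase that supplies the substrate of viperin, lies 12.751 kb from Rsad2 on the opposite strand, and is a classical interferon-induced gene. It stood at 32.8, 29.2, 21.5, 26.5 and 25.7 CPM after saline and at 32.4, 26.8 and 25.6 CPM after fucoidan. These ranges overlapped almost wholly, and the log2 fold change was 0.061 (SE 0.143, edgeR adjusted p = 0.831). The ratio of Rsad2 to Cmpk2, which does not depend on the scaling of libraries, was 6.26, 5.30, 17.3, 8.11 and 5.03 after saline and 21.5, 26.1 and 71.1 after fucoidan. Every fucoidan ratio was above every saline ratio, and saline replicate 3 came closest. This ratio and those of Isg15 to Usp18 and of Ifit1 to Ifit3 were chosen after the values were seen.

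In the ISG15 system, Isg15 rose, whereas the other members of it did not pass. Usp18, the protease that removes ISG15 and restrains IFNAR signalling, stood at 11.9 ± 2.93 CPM (SD, n = 5) and 13.4 ± 1.11 CPM (SD, n = 3). Herc6, the mouse ligase that attaches ISG15 to proteins, stood at 13.5 ± 2.17 and 14.9 ± 2.24 CPM. Their log2 fold changes were 0.17 and 0.14, with edgeR adjusted p of 0.617 and 0.628. The ratio of Isg15 to Usp18 ran from 1.35 to 3.89 after saline and from 5.18 to 13.3 after fucoidan, without overlap. Outside the members, Ube2l6, which encodes the conjugating enzyme that hands ISG15 on, went from 528, 462, 1132, 621 and 401 CPM to 2119, 2312 and 5118 CPM. The groups did not overlap, and the libraries kept the order of Isg20 and Rsad2 in both groups. Its log2 fold change was 2.34 (SE 0.357, edgeR adjusted p = 0.00396), and its ratio to the erythroid sum was 0.201 to 0.225 after saline and 0.203 to 0.216 after fucoidan. Uba7, the activating enzyme of the same cascade, was not called.

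The IFIT family, whose proteins bind foreign RNA ends and hinder its translation, was divided. Ifit1 (ENSMUSG00000034459, chromosome 19, 34618271 to 34627409) stood at 14.3, 9.51, 12.5, 10.1 and 9.40 CPM after saline and at 18.8, 15.7 and 24.5 CPM after fucoidan. All fucoidan libraries were above all saline libraries, with replicate 3 highest, and the log2 fold change was 0.81 (SE 0.186, edgeR adjusted p = 0.0149). Ifit2 (ENSMUSG00000045932, chromosome 19, 34528094 to 34553819) stood at 45.8, 50.8, 44.5, 47.5 and 37.0 CPM after saline and at 60.8, 56.3 and 95.7 CPM after fucoidan. Fucoidan replicate 3 again stood apart, without overlap of the groups, and the log2 fold change was 0.65 (SE 0.167, edgeR adjusted p = 0.0259). Ifit3 and Ifit3b, similar copies between which reads may be shared, lie between Ifit2 and Ifit1 on the same strand and did not pass, with log2 fold changes of -0.16 (SE 0.219) and -0.20 (SE 0.282). Ifit3 stood at 14.98 ± 3.75 CPM (SD, n = 5) and 13.3 ± 3.47 CPM (SD, n = 3). The ratio of Ifit1 to Ifit3 was 0.637 to 1.058 after saline and 1.084 to 2.06 after fucoidan, so the groups only just failed to overlap. Without fucoidan replicate 3 neither gene passed (edgeR adjusted p = 0.0769 for Ifit1 and 0.110 for Ifit2, whose log2 fold change was then 0.39). Ifit2 also did not pass without saline replicate 4 or 5 (0.0561 and 0.0556) or with the replicate block (0.0839), and over all 16 alternatives its edgeR, DESeq2 or limma adjusted p ran from 0.00303 to 0.110 and that of Ifit1 from 0.000996 to 0.0769.

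The OAS family makes 2'-5' oligoadenylates that activate RNase L, and OASL1 and OASL2 are related proteins. All 5 members had positive log2 fold changes, from 0.20 to 0.55, and 1 passed. Oas3 (ENSMUSG00000032661, chromosome 5, 120891163 to 120915726, minus strand) stood at 53.1, 45.3, 38.8, 42.7 and 40.2 CPM after saline and at 65.3, 55.0 and 73.4 CPM after fucoidan. The lowest fucoidan library was just above the highest saline library, replicate 1. The log2 fold change of Oas3 was 0.55 (SE 0.128, edgeR adjusted p = 0.0160). It did not pass without fucoidan replicate 1 or 3 (0.0533 and 0.0742) or with the replicate block (0.0567), within a range of adjusted p over alternatives of 0.00174 to 0.0742. Oas2, which lies 3.244 kb from Oas3, stood at 17.6 ± 1.85 CPM (SD, n = 5) and 22.7 ± 4.66 CPM (SD, n = 3). Oas1a, Oas2, Oasl1 and Oasl2 had log2 fold changes of 0.25, 0.37, 0.39 and 0.20, with edgeR adjusted p of 0.572, 0.125, 0.145 and 0.587. Oas1a has close copies beside it, and its reads may not all be kept apart from theirs. Oas1c, 1 of these copies and no member, was called lower (log2 -0.67, SE 0.197, edgeR adjusted p = 0.0440), though not with the replicate block (0.135).

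Ifit1, Ifit2 and Oas3 stood in the fucoidan order 3, 1, 2 from high to low. The platelet marker sum had the same order, at 7182, 6105 and 13078 CPM in fucoidan replicates 1 to 3. The T cell marker sum had it too, at 974, 956 and 1306 CPM, with 2 of 9 markers called higher. Single T cell markers did not all share it. Lck stood at 246, 225 and 298 CPM in fucoidan replicates 1 to 3, whereas Trac stood at 100, 107 and 152 CPM. The saline libraries did not repeat the match of these sums. There the platelet sum was highest in replicate 3, at 4335 CPM, where Oas3 was lowest, at 38.8 CPM. The T cell sum was highest in saline replicate 2, at 838 CPM, as was Ifit2, while Ifit1 and Oas3 were highest in replicate 1. Of 9 natural killer cell markers 9 were called higher, and they summed to 274 to 392 CPM after saline and to 915, 691 and 642 CPM in fucoidan replicates 1 to 3. The natural killer sum was thus higher in every fucoidan library than in any saline library. It was lowest of the fucoidan libraries in replicate 3, where Ifit1, Ifit2 and Oas3 were highest. Single natural killer markers did not share 1 order there. Klrk1 stood at 138, 141 and 99.7 CPM in fucoidan replicates 1 to 3, whereas Prf1 stood at 148, 93.8 and 95.5 CPM. Nonclassical monocyte markers summed to 1681 to 2114 CPM and 2292 to 2564 CPM, with 4 of 10 called higher. The largest part of these sums was Itgal, at 644 and 1050 CPM as group means. Of the 10, 7 had positive log2 fold changes and 3 negative: Nr4a1, Cx3cr1 and Ear2, at -0.52, -0.31 and -0.037, none of them called. The part of these cell types in the changes was not tested.

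**Figure D3:**
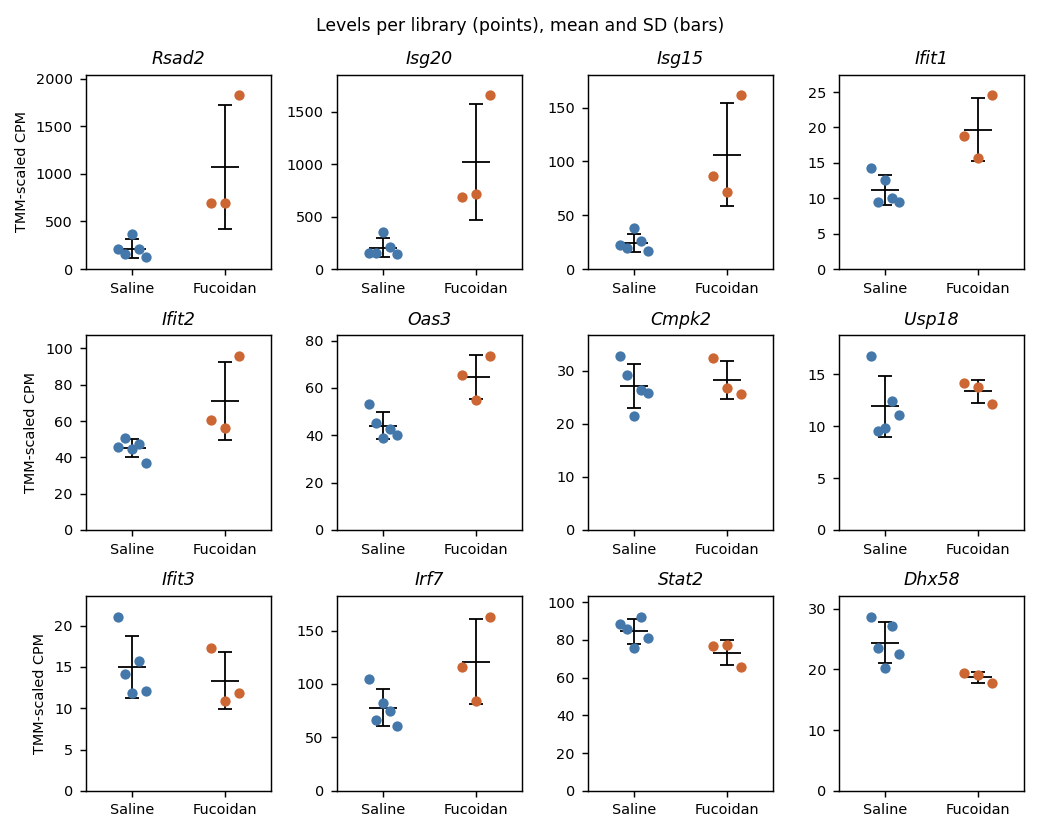
TMM-scaled CPM of 12 members in 5 saline (blue) and 3 fucoidan (orange) libraries, 1 point each, with the mean and SD as black bars; each axis starts at 0. Rsad2, Isg20, Isg15, Ifit1, Ifit2 and Oas3 lie higher in every fucoidan library and Dhx58 lower, while Cmpk2, Usp18, Ifit3, Irf7 and Stat2 overlap.

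The dynamin-like MX GTPases trap viral nucleoproteins, and laboratory strains such as C57BL/6J are known to carry a defective Mx1. Mx1 stood at 20.9, 17.7, 10.7, 15.7 and 13.8 CPM after saline and at 16.4, 17.9 and 15.4 CPM after fucoidan, inside the saline range. Its log2 fold change was 0.072 (SE 0.192, edgeR adjusted p = 0.854). Mx2 stood at 4.22 ± 1.61 CPM (SD, n = 5) and 4.196 ± 1.24 CPM (SD, n = 3) and did not pass either.

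Of the transcription factors that carry the response, none passed, and Irf7 came closest. Irf7, the factor that amplifies interferon production and is itself induced (ENSMUSG00000025498, chromosome 7, 140842619 to 140846394), stood at 105, 66.6, 82.5, 74.6 and 60.2 CPM after saline and at 116, 84.1 and 163 CPM after fucoidan. Fucoidan replicate 2 lay inside the saline range and the other fucoidan libraries above it. Its log2 fold change was 0.64 (SE 0.212, edgeR adjusted p = 0.0715). It passed with DESeq2 (adjusted p = 0.0314) and without saline replicate 1 or fucoidan replicate 2 (0.0404 and 0.0289), and its adjusted p over alternatives ran up to 0.332. Stat2 and Irf9, components of the complex ISGF3, stood at 84.5 ± 6.52 and 96.3 ± 13.4 CPM (SD, n = 5) and at 73.2 ± 6.73 and 94.1 ± 14.5 CPM (SD, n = 3). Their log2 fold changes were -0.21 (SE 0.103) and -0.033 (SE 0.134).

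Sensors of nucleic acids leaned in no common direction. Dhx58, which encodes LGP2, a regulator of RIG-I-like receptors (ENSMUSG00000017830, chromosome 11, 100585710 to 100595097), stood at 28.6, 23.5, 20.3, 27.2 and 22.6 CPM after saline and at 19.4, 19.1 and 17.7 CPM after fucoidan. It was the 1 member of 33 that was lower in every fucoidan library than in every saline library, against 11.0% of all genes tested, while 6 of 33 were higher in every one, against 11.6%. Its log2 fold change was -0.38 (SE 0.133, edgeR adjusted p = 0.0828), past the threshold only with upper-quartile factors (0.0489; 0.0489 to 0.259 over alternatives). Ifih1, the RNA sensor MDA5, Zbp1, a sensor of Z-form nucleic acids, and Eif2ak2, the RNA-activated kinase PKR, had log2 fold changes of -0.097, 0.15 and 0.032, with SE of 0.199, 0.164 and 0.165.

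The remaining members are effectors and induced genes. Bst2, the tetherin that holds virions to the cell surface, stood at 41.4 ± 8.38 CPM (SD, n = 5) and 51.3 ± 6.89 CPM (SD, n = 3), with a log2 fold change of 0.31 (SE 0.156, edgeR adjusted p = 0.224). Trim30a, a regulator of Toll-like receptor signalling in mice, and Parp14, a mono-ADP-ribosyltransferase, had log2 fold changes of -0.037 and 0.11. Phf11d, a PHD finger protein (ENSMUSG00000068245, chromosome 14, 59584856 to 59602919), stood at 6.28, 3.94, 2.67, 3.47 and 2.73 CPM after saline and at 3.25, 2.06 and 1.76 CPM after fucoidan. Its groups overlapped, and its log2 fold change of -0.67 (SE 0.340, edgeR adjusted p = 0.225) was the most negative of the 33. Ifi44, Ifi27l2a, Xaf1 (a partner of the apoptosis inhibitor XIAP), Rtp4 and Ifi35 had log2 fold changes of -0.17, -0.12, -0.020, 0.027 and 0.098. Ifi44 was the weakest member, at 1.05 ± 0.433 and 0.896 ± 0.585 CPM, and its SE of 0.512 was the widest. Of the 27 members not called, 25 had log2 fold changes within 0.5 of 0, Irf7 and Phf11d being the exceptions, and 4 had an unadjusted p under 0.05. With an SE of 0.103 or more for each, small changes could not be told from 0. Larger ones also went uncalled, such as Dhx58 at -0.38 (SE 0.133) and Irf7 at 0.64 (SE 0.212).

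**Figure D4:**
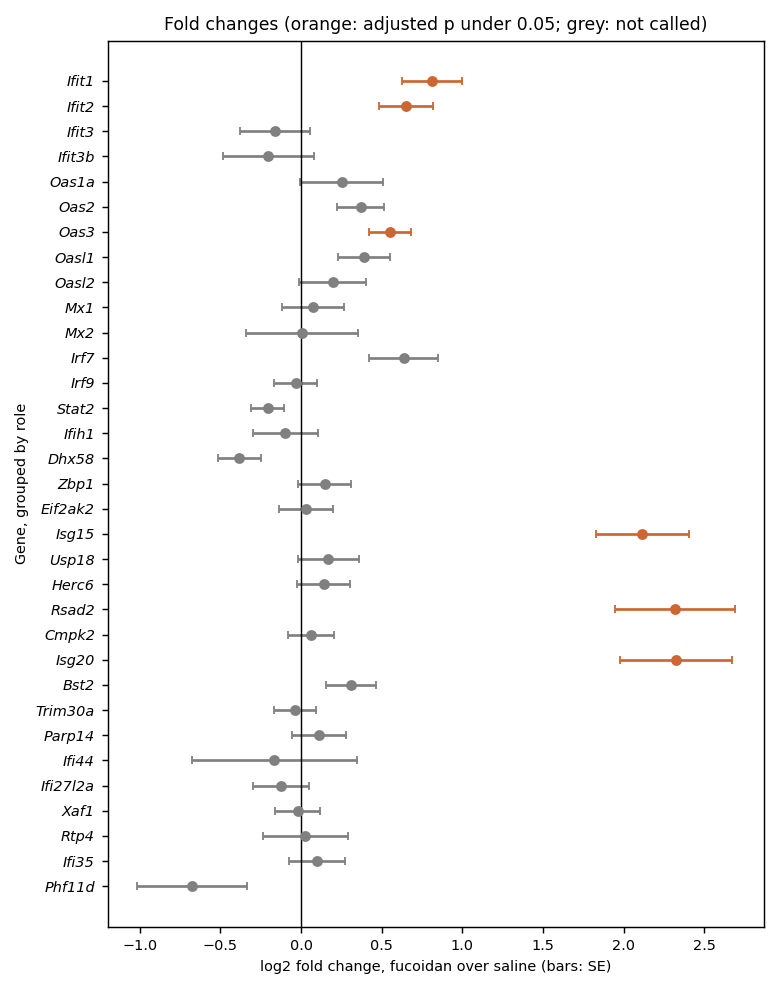
Log2 fold change of each member, fucoidan over saline, with its SE as a bar; genes are grouped by role, orange marks an adjusted p under 0.05 and grey no call. Isg15, Rsad2 and Isg20 lie between 2.11 and 2.33, and the 27 grey genes lie between -0.67 and 0.64.

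Per kilobase of gene length, Isg20 was the most abundant member in both groups, at 108.9 and 546 CPM per kb as group means. After saline it was followed by Ifi27l2a, Rsad2, Bst2 and Isg15 at 93.8, 49.7, 45.9 and 34.9 CPM per kb. After fucoidan Rsad2 and Isg15 came next, at 247 and 151 CPM per kb, ahead of Ifi27l2a and Bst2 at 85.7 and 56.8 CPM per kb. The lowest was Ifi44 in both groups, at 0.172 and 0.146 CPM per kb. Ifit1, Ifit2 and Oas3 lay lower, at 4.203 to 11.5 CPM per kb after saline and 7.41 to 18.1 CPM per kb after fucoidan.

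Most members were highest in the same library of each group, while in the fucoidan group the lowest library was divided. Leaving aside Isg15, Isg20 and Rsad2, 23 of 30 members were highest among the saline libraries in replicate 1 and 18 were lowest in replicate 3, the library in which those 3 genes were highest. Among the fucoidan libraries 21 of 30 were highest in replicate 1, whereas 14 were lowest in replicate 2 and 15 in replicate 3. The summed level of the 30 members was 1253, 1073, 908, 1053 and 999 CPM after saline and 1264, 1085 and 1185 CPM after fucoidan, so the groups overlapped and only fucoidan replicate 1 lay above saline replicate 1. Neutrophil markers summed to 1967, 1397, 943, 1289 and 1307 CPM in saline replicates 1 to 5 and to 1201, 969 and 1244 CPM in the fucoidan libraries. Classical monocyte markers summed to 1569, 1179, 1006, 943 and 826 CPM and to 815, 806 and 871 CPM. Both sums were highest in saline replicate 1, as most members were, and in the fucoidan group both were highest in replicate 3. Neither set of markers shared 1 order there. Of the neutrophil markers, S100a8 stood at 211, 158 and 198 CPM in fucoidan replicates 1 to 3, whereas Csf3r stood at 319, 268 and 347 CPM. Of the classical monocyte markers, F13a1 stood at 278, 239 and 392 CPM in these libraries. Fn1 stood at 167, 228 and 161 CPM and Ly6c2 at 140, 126 and 99.0 CPM. The part of neutrophils and classical monocytes in this spread was not tested.

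Upstream of the members, transcripts of the ligands were nearly absent. Of 17 type I interferon genes 16 had no count in any library, and Ifnk had 9 counts over all 8 libraries, so none could be tested. Ifnb1, interferon beta, was among those at 0. Markers of plasmacytoid dendritic cells summed to 490.4 to 654 CPM after saline and to 475 to 671 CPM after fucoidan. Spib was the largest part of these sums, at 294 to 444 CPM and 290 to 471 CPM, so they say little about the other markers. Bst2, also among these markers, is itself a member. Of 10 tested markers of plasmacytoid dendritic cells, 2 were called higher (Ccr9 and Klk1) and 2 lower (Tcf4 and Pacsin1). Siglech, the lectin that marks these cells in mice, stood at 11.0 and 17.0 CPM as group means and was not called.

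Of 7 genes of the receptor and JAK-STAT arm, 0 were called. Ifnar1 and Ifnar2, the receptor chains, stood at 131 ± 12.7 and 50.1 ± 7.94 CPM (SD, n = 5) and at 130.3 ± 11.5 and 56.2 ± 1.18 CPM (SD, n = 3). Their log2 fold changes were -0.0031 and 0.17, with edgeR adjusted p of 0.989 and 0.436. Jak1, the kinase with the smallest p of this arm, had a log2 fold change of 0.16 (edgeR adjusted p = 0.342).

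Of 14 sensors and adaptors 1 was called higher and 1 lower. Mavs, the mitochondrial adaptor of RIG-I and MDA5, rose from 37.0 ± 9.11 CPM after saline (SD, n = 5) to 76.4 ± 5.99 CPM after fucoidan (SD, n = 3), a log2 fold change of 1.04 (SE 0.172, edgeR adjusted p = 0.00406). Unlike Rsad2, it was lowest of the fucoidan libraries in replicate 3, at 70.1 CPM. Unc93b1, which delivers nucleic acid-sensing Toll-like receptors to endosomes, fell from 422 ± 56.5 to 292 ± 44.0 CPM (log2 -0.53, SE 0.141, edgeR adjusted p = 0.0298). That call was lost when saline replicate 3 or 4, or fucoidan replicate 2 or 3, was left out (0.0595 to 0.131). Of 7 negative regulators 1 rose: Ptpn11, the phosphatase SHP2, went from 198 ± 26.1 to 396 ± 152 CPM (log2 1.00, SE 0.199, edgeR adjusted p = 0.00788), and stood at 0.65 without fucoidan replicate 3.

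Of 57 other interferon-induced genes 2 were called higher, Ube2l6 and Lgals3bp, and 4 lower, Pml, Trim34a, Ms4a4c and Oas1c. Their median log2 fold change was -0.057, near that of all genes tested. Pml, the organiser of nuclear bodies, went from 242 ± 22.6 to 152 ± 7.23 CPM (log2 -0.67, SE 0.107, edgeR adjusted p = 0.00396), and Trim34a, a tripartite motif protein, had a log2 fold change of -0.55 (edgeR adjusted p = 0.00670). Ms4a4c, a membrane protein of the MS4A family, went from 93.2 ± 23.8 to 59.8 ± 7.20 CPM, a call lost without saline replicate 4 or any fucoidan library (edgeR adjusted p = 0.0625 to 0.149). Lgals3bp, the galectin-3 binding protein, had a log2 fold change of 0.59 (SE 0.165, edgeR adjusted p = 0.0380) and did not pass with the replicate block (0.115), with limma-voom (0.0529) or when any of saline replicates 2 to 5 or of fucoidan replicates 1 and 3 was left out (0.0545 to 0.180). The call of Oas1c was lost when any fucoidan library or any saline library but replicate 2 was left out (0.0598 to 0.146), with limma-voom (0.0804) and with DESeq2 factors (0.0510). In all, 4 of 85 tested pathway genes outside the members were called higher and 5 lower, against 9.11% and 4.65% of all genes tested. B cell markers, of which 8 of 9 were called lower, summed to lower levels in every fucoidan library, and the part of B cells in these falls was not tested.

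**Figure D5:**
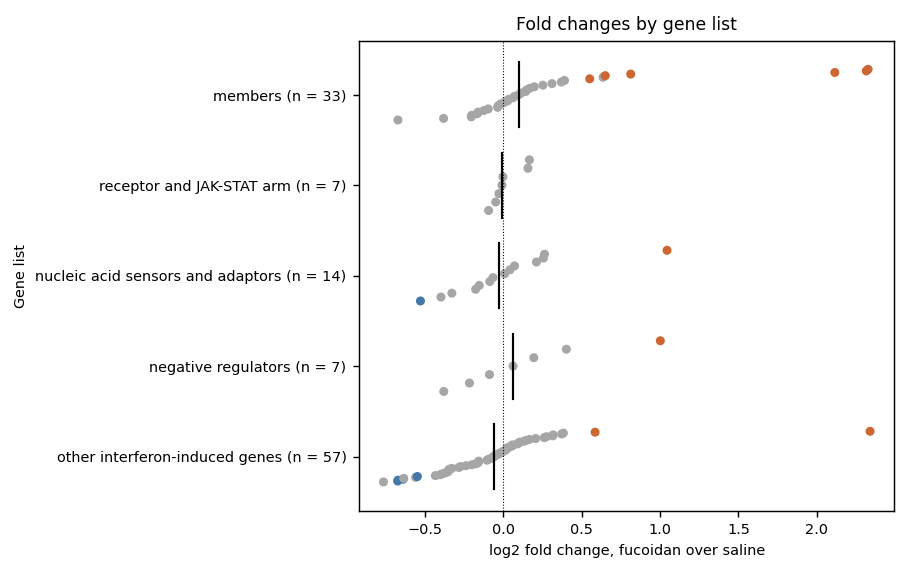
Log2 fold changes, fucoidan over saline, of the members and of 4 lists of other interferon pathway genes, 1 point for each tested gene and a black line at each median (orange called higher, blue called lower, grey not called). List medians lie between -0.057 and 0.098, and the single point beyond 2 outside the members is Ube2l6.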

How the data were processed

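Poly(A) messenger RNA was sequenced as paired ends of 150 bases. The authors deposited a table of raw whole-number counts per gene, with names, coordinates and gene lengths in bases. Per the submitters' processing notes, cutadapt 4.0, Trimmomatic 0.39 and HISAT2 2.2.1 were used, with the builds GRCm39 and mm39. The sources used here do not give the counting program, the annotation release or the strand setting, so reads of overlapping genes on opposite strands may be shared. The labels do not say whether red cells were lysed.

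Genes were filtered with filterByExpr (edgeR 4.0.16, R 4.3.3), libraries scaled by TMM, and fucoidan tested against saline by edgeR's robust quasi-likelihood test over all 14723 genes, with Benjamini-Hochberg adjustment. Each SE was obtained from the log2 fold change and its F statistic (absolute change over root F). The common biological coefficient of variation was 0.188. The procedure was tested on simulated data. CPM values are TMM-scaled and per-kilobase values use the deposited gene lengths. Total counts were 13061703 to 16334932 per library, and the labels give 1 batch date. No 2 libraries were duplicates: correlations were 0.967 to 0.986 within groups.

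Members, lists and rules were chosen with earlier results of these data known. All members were named. Values of every library were given for called members and for the member with the smallest p in each role without one. Of each pathway list, called genes were named, or the one with the smallest p. Ifnar1, Ifnar2, Ifnb1 and 1 further gene were to be given whatever their p, and the last is not reported here. No test was made over a list. Promoters came from a RefSeq table of GRCm38.p6 and were not joined by coordinates to the counts.

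Replicate numbers recur in both groups. With group means removed, libraries of the same number correlated at 0.177, 0.233 and 0.144, all over 0.1. This is a hint of pairing from the data and not from the labels. Of the pairs with different numbers, saline replicate 5 and fucoidan replicate 2 reached 0.144 as well. The main test did not pair libraries. The blocked fit was an alternative, in which saline replicates 4 and 5 add nothing to the difference. Other alternatives were DESeq2 factors, upper-quartile factors, TMM without erythroid and platelet genes, DESeq2 1.42.0, limma-voom (limma 3.58.1), 2 other filters, and leaving out each library.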

Additional observations from a re-analysis of the deposited data

Results flagged for a closer look

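In 4 members saline replicate 1 stood apart from the other saline libraries, its gap to the nearest being most of the group's range. Oas1a was at 31.5 CPM there and at 15.5 to 17.8 CPM in the others, Oasl2 at 65.5 against 37.3 to 45.0 CPM, Rtp4 at 24.8 against 12.7 to 15.1 CPM, and Ifit3b at 5.94 against 2.84 to 3.29 CPM. None of the 4 was called. Such a gap arises by chance in about 1 of 20 groups, and 33 saline groups were examined. These groups are the same 5 libraries read on different genes, so they are not independent of each other. The 4 gaps, all in replicate 1, cannot be counted as separate draws. The fucoidan group, with 3 libraries, was not examined in this way.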

How the results depend on the processing

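Of the 6 members called, Isg15, Isg20 and Rsad2 passed under all 16 alternatives, Ifit1 under 15, Oas3 under 13 and Ifit2 under 12. The replicate block ended the calls of Ifit2 and Oas3, leaving 4 members, and those of Lgals3bp and Oas1c, changed no other call among the members or among the 9 other pathway genes called, and left 439 falls among all genes, against 684. Upper-quartile factors called 1 member lower, Dhx58, and raised the other pathway genes called from 9 to 14, of which 10 lower; the DESeq2 test called 15, of which 9 lower. Leaving out 1 library gave 928 to 2224 calls over all genes (746 to 1368 higher, 182 to 856 lower), 4 to 8 members (0 lower) and 5 to 11 other pathway genes (3 to 5 higher, 2 to 7 lower). Against 2025 calls over all genes, 928 were made without fucoidan replicate 3 and 1291 without saline replicate 4; other pathway genes called, 9 in all, were 5 without the one or the other. The share of calls that were higher was 66.2% with TMM, 55.7% with upper-quartile factors and 80.4% without fucoidan replicate 3. Median log2 fold changes of all genes stayed between -0.11 and -0.021.

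Directions turned for members near 0 and for Ifnar1, none of them called, and the cause was not tested. With upper-quartile factors Eif2ak2, Mx2 and Rtp4 stood at -0.018, -0.044 and -0.020. With the replicate block Rtp4, Trim30a and Ifnar1 stood at -0.064, 0.00029 and 0.0055. With DESeq2 factors Ifnar1 stood at 0.018, with the DESeq2 test Ifnar1 and Xaf1 at 0.018 and 0.0025, and without erythroid and platelet genes in the factors Ifnar1 at 0.0018. Mx2 was at -0.0045 with no filter and at -0.0022 with at least 10 counts in every library, a filter that Ifi44 did not pass. Leaving out 1 library, log2 ranges that crossed 0 were -0.049 to 0.14 for Cmpk2, -0.087 to 0.13 for Eif2ak2, -0.36 to 0.044 for Ifi27l2a, -0.015 to 0.21 for Ifi35, -0.46 to 0.24 for Ifi44, -0.21 to 0.036 for Ifih1, -0.28 to 0.041 for Ifit3b, -0.060 to 0.065 for Ifnar1, -0.17 to 0.058 for Irf9, -0.032 to 0.19 for Mx1, -0.25 to 0.18 for Mx2, -0.044 to 0.49 for Oas1a, -0.34 to 0.24 for Rtp4, -0.11 to 0.029 for Trim30a and -0.14 to 0.11 for Xaf1.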
